A study of Rattus norvegicus with 20 samples.

Results

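The genes described here are 6 members of the cardiac insulin signalling route and of the atrophy programme under FoxO factors, among 24059 Ensembl gene IDs in a table of rat heart ventricle transcripts. They were taken from a fixed list of IDs with their symbols, namely Insr (ENSRNOG00000029986), Irs1 (ENSRNOG00000014597), Irs2 (ENSRNOG00000023509), Foxo1 (ENSRNOG00000013397), Trim63 (ENSRNOG00000016543) and Fbxo32 (ENSRNOG00000006738). None of the 6 IDs was missing from the table, and all 6 were among the 14293 IDs that passed the filter on low counts. RNA of 20 male rats was sequenced, 1 library per rat. WT Sprague Dawley rats and littermates with a global Vegfb knockout (Vegfb KO), in which zinc finger nucleases had been used to place a beta-galactosidase sequence in the Vegfb gene, were 9 weeks old. The diabetic rats of each genotype had been injected in a vein with streptozotocin (STZ) at 55 mg/kg, which destroys pancreatic beta cells, and hearts were taken on day 4 of diabetes, and the control rats of each genotype were not diabetic. Both genotypes had 5 control and 5 diabetic rats, which makes 4 groups. The knockout affected every tissue and was not limited to the heart.

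Insulin binds its receptor, Insr, whose kinase phosphorylates the adaptor proteins Irs1 and Irs2, and these recruit the PI3K and Akt kinases. Akt phosphorylates Foxo1, which then leaves the nucleus, and when insulin is low the factor returns and can switch on genes that include Irs2, Insr and the muscle ubiquitin ligases Trim63 (MuRF1) and Fbxo32 (atrogin-1). In the heart this route governs glucose uptake and the balance between protein synthesis and breakdown.

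Total counts per library ranged from 7220469 to 26664479, with a median of 20.7 M. The shallowest libraries were Vegfb KO diabetic replicate 1 with 7220469 counts and WT control replicate 2 with 7314287, so their values were the least precise. In the first of these the counts of the genes described here were also at their lowest, from 97 for Irs2 to 544 for Fbxo32. A pair of diabetic libraries stood apart in composition. A single gene ID took 23.3% of the counts of WT diabetic replicate 2 and 25.5% of those of Vegfb KO diabetic replicate 1, against at most 5.28% in any of the other libraries. Their TMM factors, which correct library sizes for such differences in composition, were 0.729 and 0.693, and those of the other libraries lay between 0.935 and 1.17. This pair is called the dominated libraries. Levels are given as CPM, the count of a gene scaled to the total of its library after TMM normalization. The levels of different genes were not compared, because gene lengths were not used.

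Promoter sequences from RefSeq (build GRCr8, 250 bases before to 50 bases after the start of the gene) were matched by symbol for 4 of the 6 genes, Insr, Irs1, Foxo1 and Trim63. They were searched for TGTTTAC, the core of the FoxO binding motif, and for its reverse complement GTAAACA. Of all 33469 promoters of this length, 1265 (3.78%) held it on either strand. It was present in those of Insr and Trim63, whose products stand at the head and at the end of the route, and not in the 300 bases of Irs1 and Foxo1. In Insr it began 100 bases before the start (chr12:6128885-6128914, minus strand), and in Trim63 it began 205 bases before the start (chr5:151816986-151817185, plus strand). The stretches around it are shown because Foxo1 and these genes are each described below. The motif is in capitals, and the strand of the gene is read from 5′ to 3′. A match describes letters and not a bound site.
Insr: acgggccgcgtTGTTTACtggccggagtcg
Trim63: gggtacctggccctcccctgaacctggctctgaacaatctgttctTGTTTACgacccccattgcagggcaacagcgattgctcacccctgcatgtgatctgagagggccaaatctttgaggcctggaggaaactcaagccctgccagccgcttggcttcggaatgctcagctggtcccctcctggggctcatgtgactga

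Whether diabetes altered the route in the ventricle was addressed within each genotype. In WT hearts 0 of the 6 genes were called, against 13.1% of all tested IDs. A gene was called at an adjusted p-value under 0.05 from edgeR's quasi-likelihood test over all tested IDs together with an absolute log2 fold change above 0.27. At an unadjusted p under 0.05 there were 2 (Insr and Irs1), against 27.01% of all tested IDs. DESeq2 called 0, against 14.6% of all tested IDs, and limma voom with sample quality weights, added after seeing the data, called 2 (Irs1 and Trim63), against 19.7% of all tested IDs. In Vegfb KO hearts 1 of the 6 was called, against 7.84% of all tested IDs, and this was Irs2. That share was 4.46% without Vegfb KO diabetic replicate 3, and Irs2 was then not called. For the mean response over both genotypes, which uses all 10 diabetic and all 10 control hearts, 1 of the 6 was called, again Irs2, against 16.2% of all tested IDs. The median of the absolute log2 fold changes of the 6 genes was 0.24 in WT and 0.15 in Vegfb KO hearts, where that of all tested IDs was 0.18 and 0.16. The shares called and the sizes of change were thus near those of the other tested IDs.

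**Figure D1:**
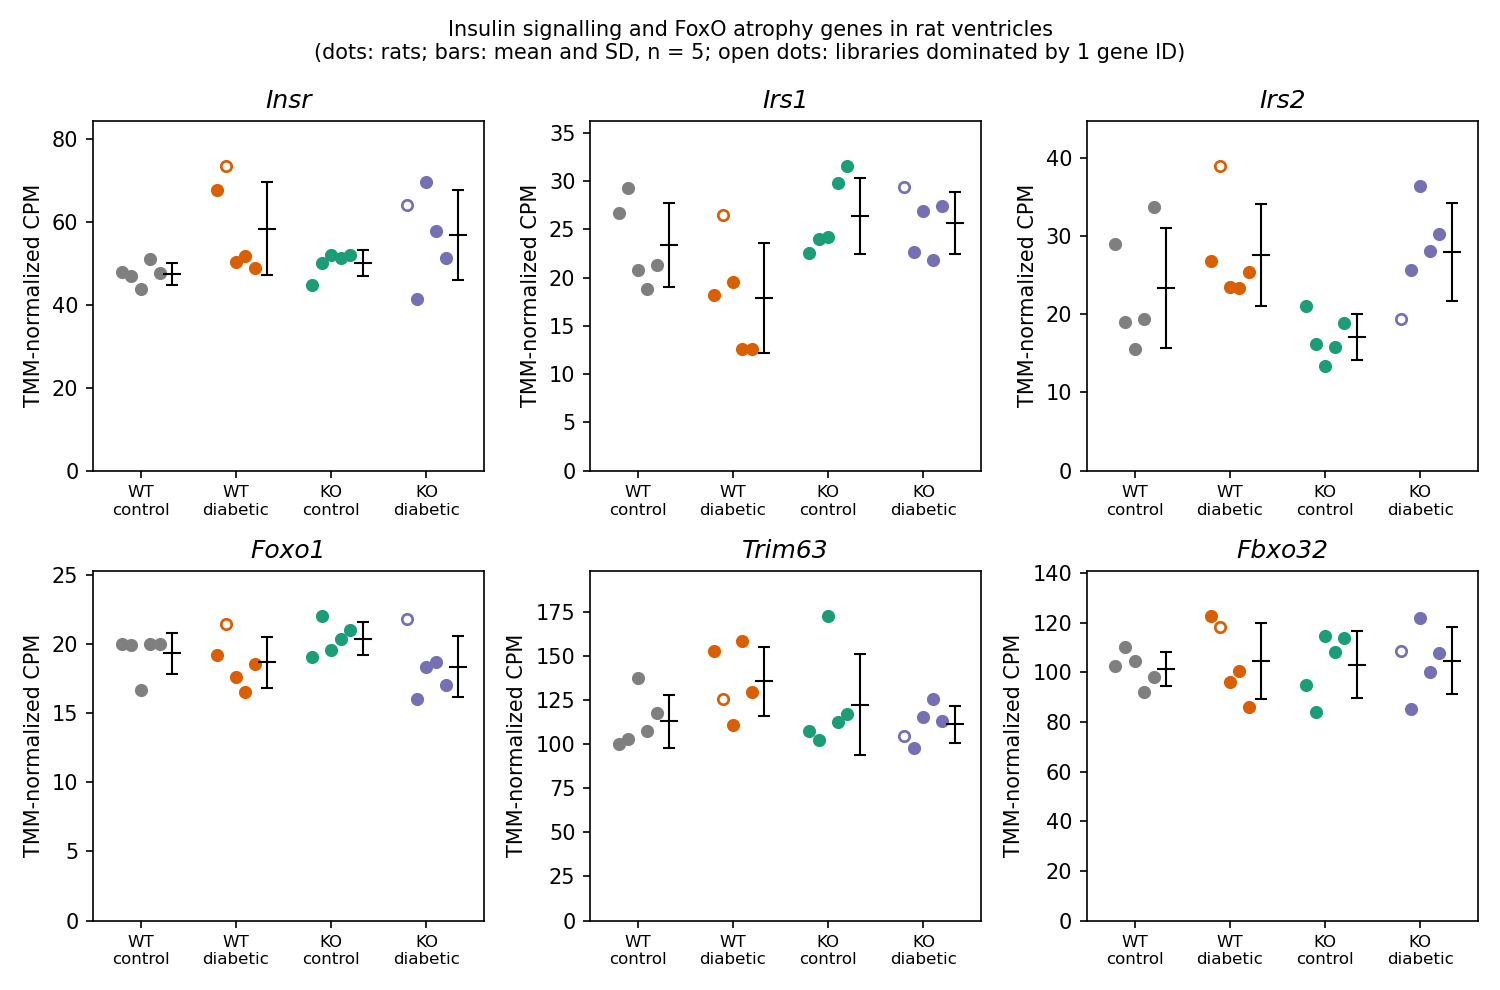
TMM-normalized CPM of the 6 genes (y axes, from 0) in the 4 groups (x axes). Each dot is 1 rat, open dots are the libraries dominated by 1 gene ID, and bars give the mean and SD (n = 5). The Irs2 values of 4 Vegfb KO diabetic rats (25.7 to 36.4 CPM) lie above all Vegfb KO control values, 4 of the Foxo1 values of that group (16.0 to 18.7 CPM) lie below all Vegfb KO control values, and the groups of Fbxo32 overlap.

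The insulin receptor Insr was measured at 47.8, 46.9, 43.8, 51.1 and 47.5 CPM in the WT control rats (replicates 1 to 5). The WT diabetic rats had 67.5, 73.3, 50.2, 51.7 and 48.8 CPM. Replicates 1 and 2 stood high in this group, while the other 3 lay within or just above the range of the controls. In Vegfb KO controls Insr was at 44.6, 49.9, 52.0, 51.3 and 52.0 CPM. The Vegfb KO diabetic rats had 63.9, 41.5, 69.5, 57.8 and 51.3 CPM, so that 3 were above and 1 was below every Vegfb KO control. Diabetic hearts of either genotype were therefore more scattered, with SDs of 11.3 (WT) and 10.9 CPM (Vegfb KO) against 2.60 and 3.10 CPM in the controls (n = 5 each). The difference between these spreads was not tested. The log2 fold change was 0.29 in WT (95% interval 0.05 to 0.54) with an adjusted p of 0.109 from edgeR's quasi-likelihood test, and 0.18 in Vegfb KO hearts (-0.07 to 0.43) with an adjusted p of 0.421. Without both dominated libraries these were 0.19 and 0.13, and the value in Vegfb KO hearts was 0.09 without Vegfb KO diabetic replicate 3 and 0.27 without Vegfb KO diabetic replicate 2. The mean response over both genotypes was 0.24 (standard error 0.08). Its adjusted p of 0.0463 from edgeR's quasi-likelihood test was under 0.05, but the change was smaller than 0.27, so Insr was not called. Without WT diabetic replicate 2 and Vegfb KO diabetic replicate 1 it was 0.16 with an adjusted p of 0.161 from the same test, and without Vegfb KO diabetic replicate 2 it was 0.28 with an adjusted p of 0.00901, which passed both limits.

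Irs1, an adaptor phosphorylated by the receptor, was at 26.7, 29.3, 20.8, 18.8 and 21.4 CPM in WT controls. In WT diabetic hearts it was at 18.2, 26.5, 19.5, 12.6 and 12.6 CPM. Replicates 4 and 5 of the diabetic rats were the lowest of all 20 libraries, and replicate 2, dominated by 1 gene ID, was the highest of its group and overlapped the controls. Vegfb KO controls had 22.6, 24.0, 24.2, 29.8 and 31.5 CPM, and Vegfb KO diabetic rats 29.4, 22.7, 26.9, 21.9 and 27.5 CPM. These ranges overlapped, with means of 26.4 ± 3.95 and 25.7 ± 3.24 CPM (SD, n = 5 each). In WT hearts the log2 fold change was -0.38 (95% interval -0.74 to -0.03, standard error 0.17) with an adjusted p of 0.153 from edgeR's quasi-likelihood test. Irs1 passed the test in WT hearts once WT diabetic replicate 2 was left out. The log2 fold change was then -0.56 with an adjusted p of 0.0171 from the same test, and without both dominated libraries it was also -0.56 with an adjusted p of 0.0171. Other fits weakened it, to -0.27 without WT diabetic replicate 4 and to -0.30 without both shallowest libraries, and neither gave a call. The mean response over both genotypes moved in the same ways. It was -0.22 with all libraries (adjusted p = 0.205, edgeR's quasi-likelihood test). It was -0.33 without both dominated libraries (adjusted p = 0.0266, same test) and -0.31 without WT diabetic replicate 2 alone (adjusted p = 0.0342, same test). It shrank to -0.16 without WT diabetic replicate 4 and to -0.20 without both shallowest libraries. In Vegfb KO hearts the log2 fold change was -0.05 (95% interval -0.41 to 0.30). It was -0.10 without both dominated libraries, -0.11 without Vegfb KO control replicate 1, 0.02 without Vegfb KO control replicate 5 and 0.001 without Vegfb KO diabetic replicate 4. In bulk ventricle, fewer cells of a type and less RNA per cell cannot be told apart, here as for the other genes.

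Irs2, the second adaptor and itself a gene that FoxO factors can induce, was at 21.1, 16.2, 13.4, 15.8 and 18.9 CPM in Vegfb KO controls. Vegfb KO diabetic hearts had 19.4, 25.7, 36.4, 28.1 and 30.2 CPM. Of the diabetic rats 4 exceeded every control, and replicate 1, the shallow library dominated by 1 gene ID, fell within the control range. WT controls had 29.0, 19.02, 15.6, 19.4 and 33.7 CPM. WT diabetic hearts had 26.8, 38.9, 23.4, 23.3 and 25.4 CPM. WT controls were widely spread, with replicates 1 and 5 above every WT diabetic value except that of replicate 2, so the WT groups overlapped. Irs2 rose with diabetes in Vegfb KO hearts, from 17.1 ± 2.96 to 28.0 ± 6.24 CPM (SD, n = 5 each). The change was 1.66-fold, a log2 fold change of 0.73 (standard error 0.20, 95% interval 0.31 to 1.16) with an adjusted p of 0.0297 from edgeR's quasi-likelihood test. Over both genotypes Irs2 rose by a log2 fold change of 0.48 (standard error 0.14, 95% interval 0.18 to 0.78, adjusted p = 0.0196, edgeR's quasi-likelihood test). In WT hearts alone it was at 23.3 ± 7.67 and 27.6 ± 6.49 CPM (SD, n = 5 each), and the log2 fold change was 0.22 (95% interval -0.20 to 0.64). This value was 0.07 without WT diabetic replicate 2, 0.06 without both dominated libraries, 0.10 without WT control replicate 3 and 0.40 without WT control replicate 5, and was not called in any of these fits.

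The rise of Irs2 in Vegfb KO hearts kept its direction but lost its call when any 1 of 6 libraries was left out. These were Vegfb KO control replicates 2, 3 and 4 and Vegfb KO diabetic replicates 3, 4 and 5, with log2 fold changes from 0.62 to 0.74 and adjusted p from 0.0515 to 0.108 (edgeR's quasi-likelihood test). Without both dominated libraries it was 0.81 with an adjusted p of 0.00903 from the same test. The mean response over both genotypes was called with each of the 20 libraries left out in turn, between 0.40 and 0.56.

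**Figure D2:**
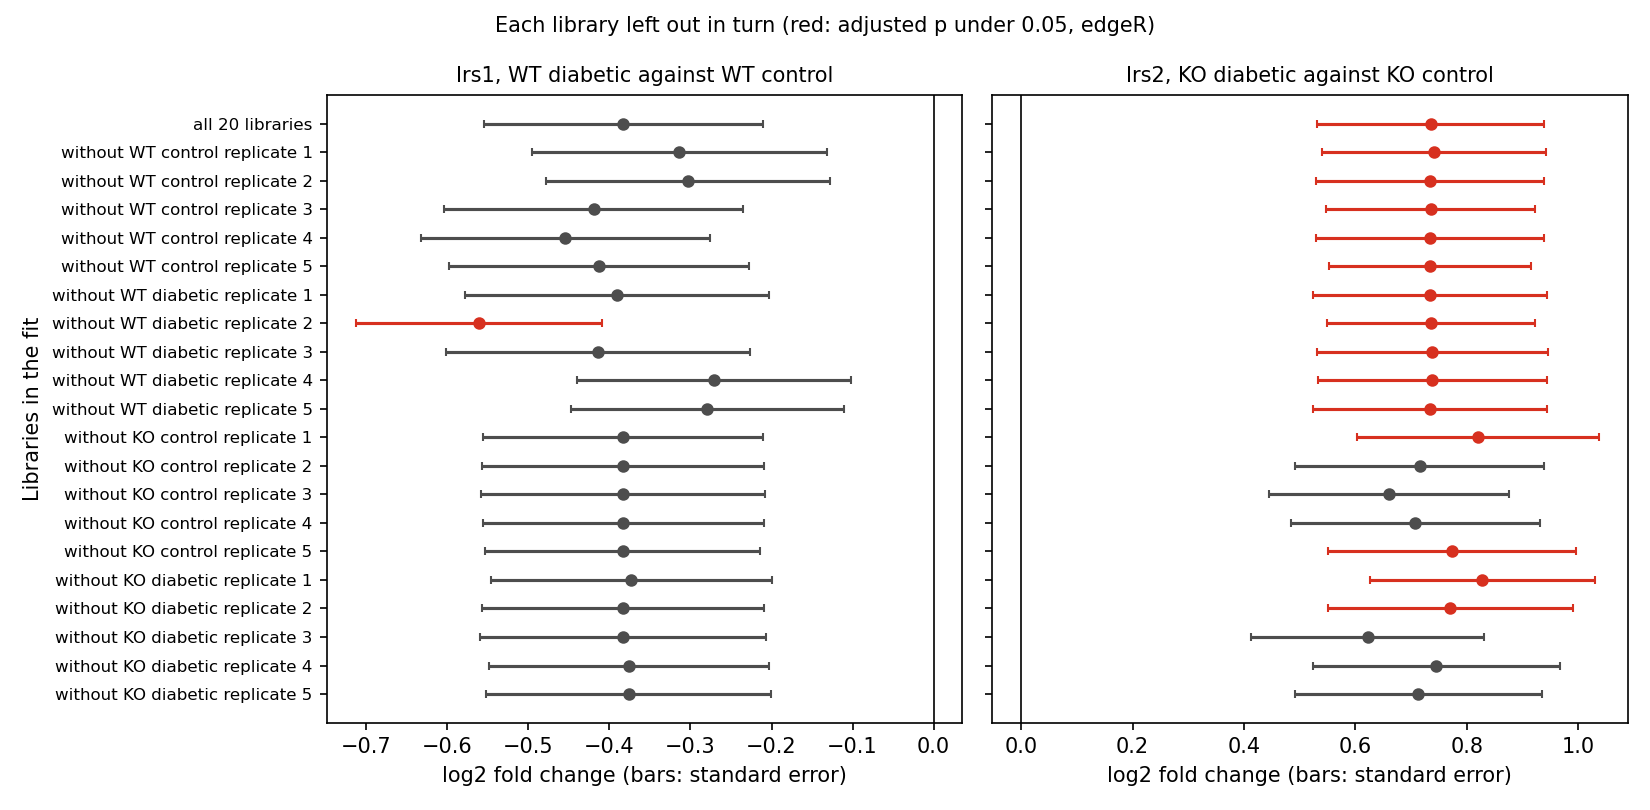
log2 fold changes (x axes) of Irs1 in WT and of Irs2 in Vegfb KO hearts with all 20 libraries and with each left out in turn (y axis). Bars are standard errors from edgeR, and red marks an adjusted p under 0.05. Irs1 is red only without WT diabetic replicate 2 (-0.56), and Irs2 turns grey without any 1 of 6 Vegfb KO libraries while staying between 0.62 and 0.83.

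Irs2 was also compared between the genotypes. Mean Irs2 in diabetic hearts was 27.6 CPM for WT and 28.0 CPM for Vegfb KO rats, while in controls it was 23.3 CPM for WT and 17.1 CPM for Vegfb KO rats. Vegfb KO against WT gave a log2 fold change of -0.46 in controls (95% interval -0.89 to -0.04, adjusted p = 1.00 by edgeR's quasi-likelihood test) and of 0.05 in diabetic hearts (95% interval -0.37 to 0.47). The sizes of these values depended on single rats, though the first stayed negative with each of the 10 control libraries left out. Diabetic libraries do not enter the group means of that comparison. Leaving out WT control replicate 5 moved the first to -0.29, and leaving out WT control replicate 3 moved it to -0.58. Leaving out both dominated libraries, which held the highest WT and the lowest Vegfb KO diabetic value, moved the second to 0.29. The second turned to -0.06 without Vegfb KO diabetic replicate 3 and to -0.01 without WT diabetic replicate 3 or 4. The test of the difference between the diabetes responses (the interaction) gave 0.51 for Irs2 (95% interval -0.09 to 1.11, adjusted p = 1.00 from the same test). It was 0.75 without both dominated libraries (adjusted p = 0.799, same test) and 0.34 without WT control replicate 5. A difference between the genotypes in the Irs2 response was therefore not shown.

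The balance of the adaptors was followed as the ratio of Irs2 to Irs1 counts within each rat, which needs no normalization between libraries. Its absolute value has no meaning without gene lengths, and only its differences between groups are described, with no test. In WT controls it was 1.09, 0.650, 0.748, 1.03 and 1.58, and in WT diabetic hearts 1.47, 1.47, 1.20, 1.84 and 2.01. Apart from WT control replicate 5, every WT control was below every WT diabetic rat. In Vegfb KO controls it was 0.934, 0.674, 0.555, 0.532 and 0.598, and in Vegfb KO diabetic hearts 0.660, 1.13, 1.36, 1.28 and 1.10. Here 4 diabetic rats lay above every control, and replicate 1 lay among them. Mean ratios were 1.02 ± 0.364 and 1.60 ± 0.325 in WT and 0.659 ± 0.163 and 1.11 ± 0.271 in Vegfb KO control and diabetic rats (SD, n = 5 each). The mean ratio was thus higher in diabetic hearts of both genotypes.

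**Figure D3:**
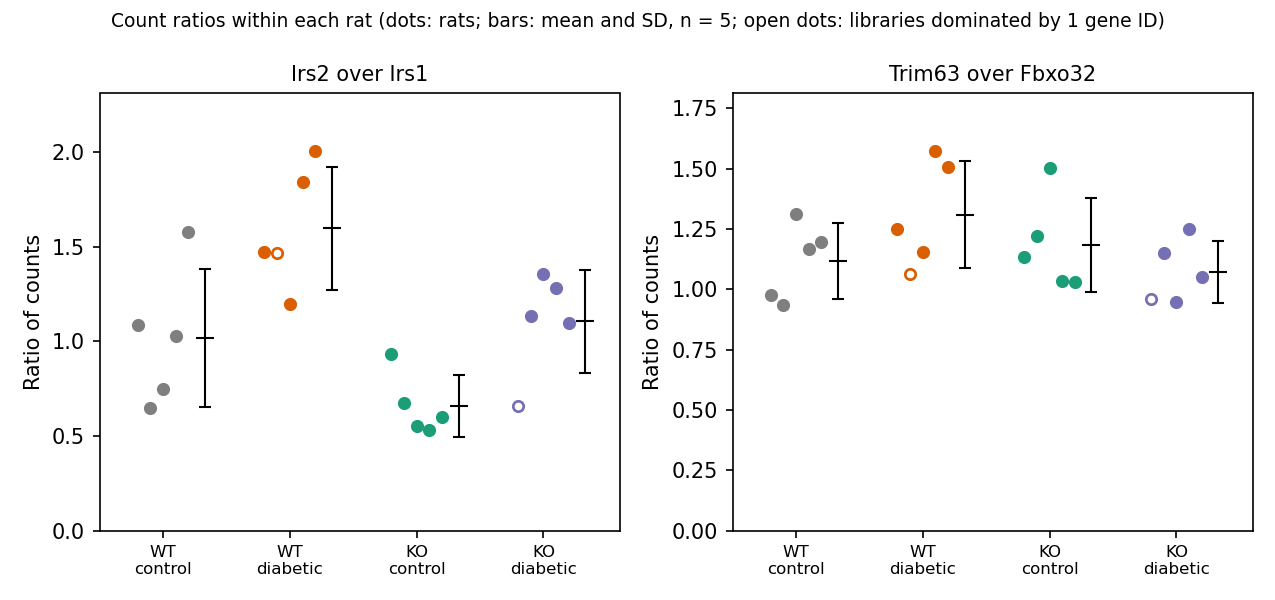
Ratio of counts of Irs2 over Irs1 and of Trim63 over Fbxo32 (y axes, from 0) in the 4 groups (x axes). Each dot is 1 rat, open dots are the libraries dominated by 1 gene ID, and bars give the mean and SD (n = 5). The mean of Irs2 over Irs1 is 1.60 against 1.02 in WT and 1.11 against 0.659 in Vegfb KO diabetic and control hearts.

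Foxo1, the transcription factor held back by insulin, varied little. It was at 20.0, 19.9, 16.7, 20.0 and 20.0 CPM in WT controls and at 19.2, 21.5, 17.6, 16.6 and 18.6 CPM in WT diabetic hearts. Vegfb KO controls had 19.05, 22.0, 19.6, 20.4 and 21.0 CPM, and Vegfb KO diabetic hearts 21.8, 16.0, 18.3, 18.7 and 17.0 CPM. In Vegfb KO rats 4 of the diabetic values were below every control, and replicate 1, dominated by 1 gene ID, was among the highest. Within groups its log2 CPM had an SD of 0.130, which is the 15.4th percentile of all tested IDs (median 0.21). The log2 fold change was -0.05 in WT (95% interval -0.23 to 0.13) and -0.17 in Vegfb KO hearts (-0.35 to 0.01), with adjusted p of 0.750 and 0.273 from edgeR's quasi-likelihood test. With 1 library left out the WT value ran from -0.11 (without WT diabetic replicate 2) to -0.01 (without WT diabetic replicate 4). The mean response over both genotypes was -0.11 (adjusted p = 0.209, same test), and without both dominated libraries it was -0.17 (adjusted p = 0.0392), smaller than the limit of 0.27. These are transcript levels, and the phosphorylation and location of the protein, on which its activity depends, were not measured.

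The ubiquitin ligase Trim63, which marks proteins of the sarcomere for breakdown, was at 100.1, 103, 137, 107 and 117 CPM in WT controls. WT diabetic hearts had 153, 126, 111, 158 and 129.9 CPM. Replicates 1 and 4 exceeded every WT control and the others fell within their range. Vegfb KO controls had 108, 102, 173, 112.4 and 117 CPM, and Vegfb KO diabetic hearts 104, 98.0, 116, 125 and 113 CPM. Vegfb KO control replicate 3 was the highest of all 20 libraries, and the other Vegfb KO rats of both groups overlapped. The log2 fold change was 0.26 in WT (95% interval -0.0015 to 0.52) with an adjusted p of 0.188 from edgeR's quasi-likelihood test, and -0.14 in Vegfb KO hearts (-0.40 to 0.13) with an adjusted p of 0.589. Without Vegfb KO control replicate 3 the value in Vegfb KO hearts turned to 0.02.

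Fbxo32, the F-box subunit of a further ubiquitin ligase of the atrophy programme, was at 103, 110.1, 105, 91.9 and 98.1 CPM in WT controls. In WT diabetic hearts it was at 123, 118, 96.2, 101 and 86.1 CPM. Replicates 1 and 2 were above the controls and replicate 5 was below them. Vegfb KO controls had 94.8, 83.9, 115, 108 and 114 CPM, and Vegfb KO diabetic hearts 109, 85.1, 122, 100.2 and 108 CPM. All 4 groups overlapped, with means between 101 and 105 CPM. The mean response of Fbxo32 over both genotypes was a log2 fold change of 0.03 with a 95% interval of -0.12 to 0.19, and that of Trim63 was 0.06 with an interval of -0.12 to 0.25. The mean for Trim63 averages responses of opposite sign in WT and Vegfb KO hearts and was 0.14 without Vegfb KO control replicate 3 and 0.03 without Vegfb KO control replicate 2. For Fbxo32 it was -0.002 without both dominated libraries, and with 1 library left out its highest value was 0.07 (without Vegfb KO diabetic replicate 2) and its lowest -0.0001 (without Vegfb KO control replicate 2). The ratio of Trim63 to Fbxo32 counts within a rat averaged 1.12 ± 0.157 and 1.31 ± 0.223 in WT and 1.18 ± 0.195 and 1.07 ± 0.130 in Vegfb KO control and diabetic rats (SD, n = 5 each), and its groups overlapped.

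**Figure D4:**
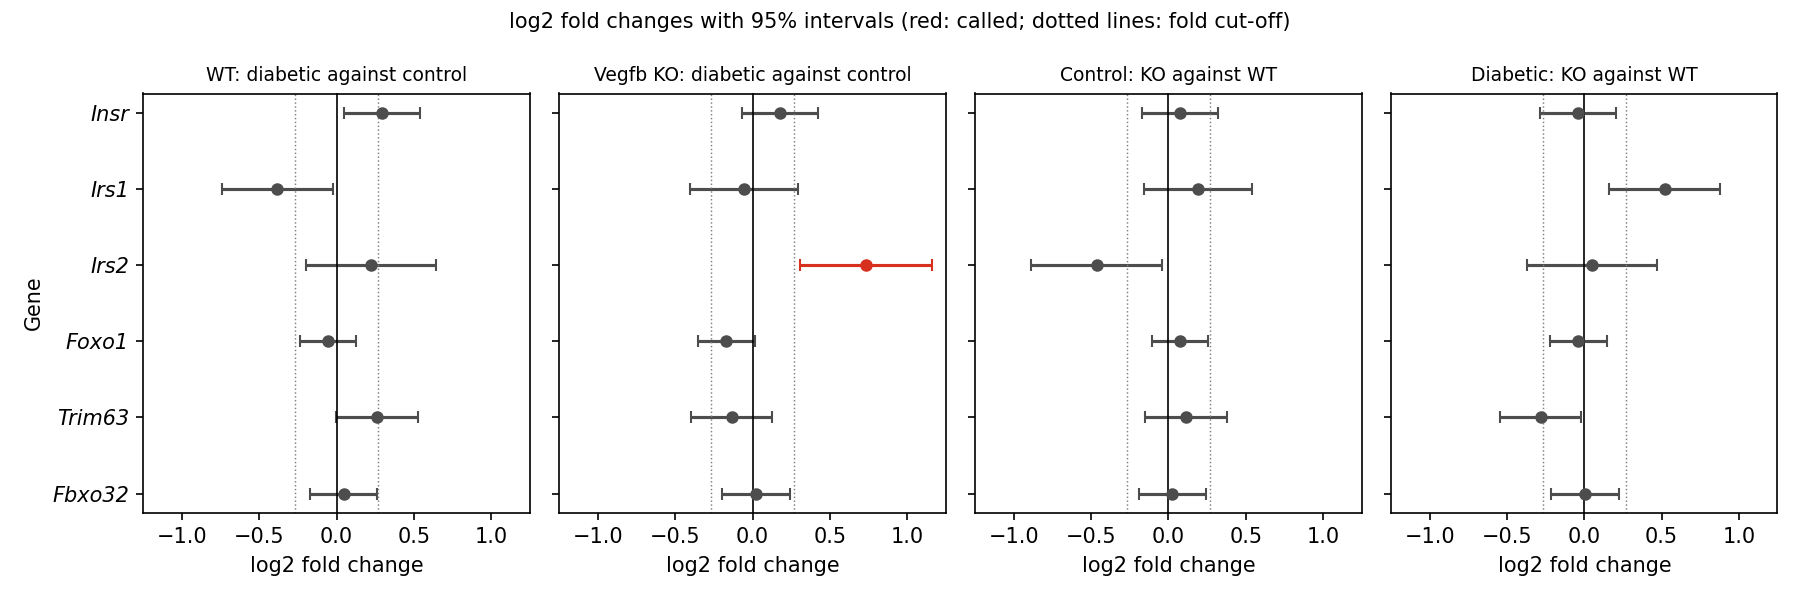
log2 fold changes (x axes) of the 6 genes (y axis) in 4 comparisons, with 95% intervals from edgeR. Red marks the called gene and dotted lines the limits of -0.27 and 0.27. Irs2 in Vegfb KO hearts is the called change (0.73), and the intervals of Fbxo32 lie around 0 in each panel.

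The effect of Vegfb loss on the route was addressed in control and in diabetic hearts. In controls 0 of the 6 genes were called by edgeR's quasi-likelihood test, against 0.028% of all tested IDs, with 1 (Irs2) at an unadjusted p under 0.05, against 3.69%, and DESeq2 and limma voom with sample quality weights each called 0, against 0.0350% and 0.0420% of all tested IDs. In diabetic hearts 0 of the 6 were called by the same test, against 0.042% of all tested IDs, with 2 (Irs1 and Trim63) at an unadjusted p under 0.05, against 8.99%, and DESeq2 and limma voom each called 0, against 0.455% and 0.196% of all tested IDs. The share of all tested IDs called by edgeR rose to 1.26% without WT diabetic replicate 3. Still, 0 of the 6 genes were called with each library left out in turn. Among diabetic hearts, those of WT rats had 17.9 ± 5.74 CPM of Irs1 and those of Vegfb KO rats 25.7 ± 3.24 CPM (SD, n = 5 each). The log2 fold change was 0.52 (95% interval 0.16 to 0.88) with an adjusted p of 0.353 from edgeR's quasi-likelihood test. Apart from WT diabetic replicate 2, all WT diabetic values of Irs1 (12.6 to 19.5 CPM) were below all Vegfb KO diabetic values (21.9 to 29.4 CPM). Without both dominated libraries the log2 fold change was 0.66 and was still not called, with an adjusted p of 0.2698 from the same test. It was smaller, at 0.41, without WT diabetic replicate 4 and at 0.48 without both shallowest libraries, and was not called in these fits. Trim63 was lower in Vegfb KO than in WT diabetic hearts by a log2 fold change of -0.28 (95% interval -0.55 to -0.02, adjusted p = 0.526, edgeR's quasi-likelihood test), and 4 of the 5 WT diabetic values lay above the highest Vegfb KO diabetic value.

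For the interaction of genotype and diabetes 0 of the 6 genes were called by edgeR's quasi-likelihood test, against 0% of all tested IDs, with 1 of the 6 (Trim63) and 600 of all IDs at an unadjusted p under 0.05. DESeq2 and limma voom also called 0, and at an unadjusted p under 0.05 they gave 614 and 1541 of all IDs and 1 and 3 of the 6 genes. The interaction of Trim63 was -0.40 (95% interval -0.77 to -0.02, adjusted p = 1.00, edgeR's quasi-likelihood test). Without Vegfb KO control replicate 3, which held the highest Trim63 value, it was -0.24. That of Irs1 was 0.33 (95% interval -0.17 to 0.83) and that of Insr -0.12 (-0.47 to 0.23), and without both dominated libraries they were 0.46 and -0.06. Without both shallowest libraries that of Irs1 was 0.21. With each library left out in turn, that of Irs1 ranged from 0.22 (without WT diabetic replicate 4) to 0.51 (without WT diabetic replicate 2) and that of Insr from -0.21 to -0.02 (without Vegfb KO diabetic replicates 3 and 2).

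Whether Foxo1 and the ligases varied together from rat to rat was addressed with log2 CPM after the mean of each group had been removed, over 20 rats and 3 relations. Trim63 and Fbxo32 had a Pearson r of 0.43 (permutation p = 0.0917, 0.275 after Benjamini-Hochberg adjustment) and a Spearman rho of 0.43 (permutation p = 0.0823, adjusted 0.247). Of the rats, 11 deviated in the same direction for both genes. Without Vegfb KO control replicate 3 and WT control replicate 3, the rats farthest from the median of Trim63, r was 0.39, and without both dominated libraries it was 0.51 with an adjusted permutation p of 0.166. For Foxo1 and Trim63 r was -0.29 (permutation p = 0.194, adjusted 0.291) and rho -0.25 (permutation p = 0.305, adjusted 0.378), with an r of -0.15 without the 2 farthest rats. For Foxo1 and Fbxo32 r was 0.25 (permutation p = 0.344, adjusted 0.344) and rho 0.22 (permutation p = 0.378, adjusted 0.378), with an r of 0.30 without the 2 farthest rats. Without both dominated libraries r was 0.10 for Foxo1 and Fbxo32 and -0.25 for Foxo1 and Trim63. Over fits that each left out 1 library, the former ranged from 0.083 (without Vegfb KO diabetic replicate 2) to 0.41 (without Vegfb KO control replicate 2), the latter from -0.43 (without Vegfb KO diabetic replicate 2) to -0.15 (without WT control replicate 3), and r of Trim63 and Fbxo32 from 0.35 (without Vegfb KO control replicate 2) to 0.50 (without WT diabetic replicate 2). No relation passed the adjusted test.

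**Figure D5:**
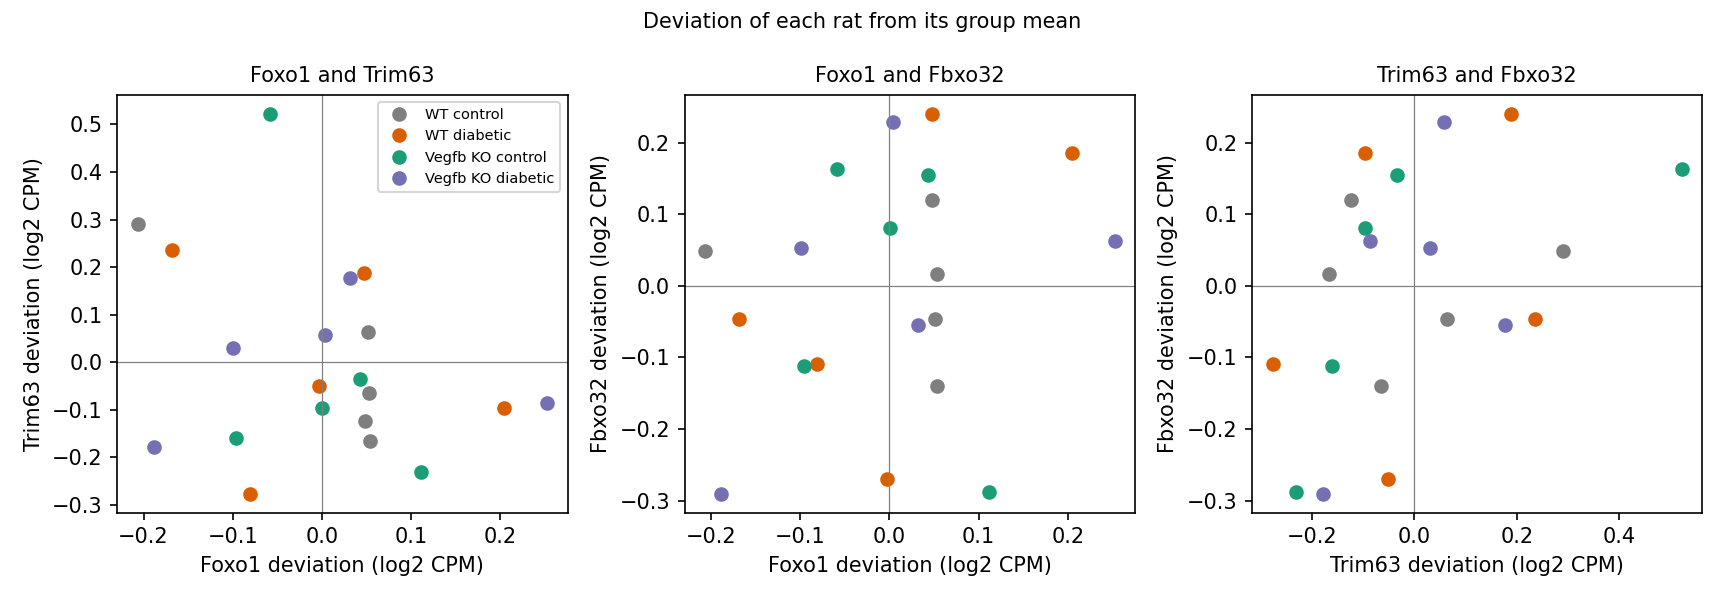
Deviation of each rat from the mean of its group in log2 CPM, for the 3 pairs of Foxo1, Trim63 and Fbxo32 (x and y axes), coloured by group. The points of Trim63 and Fbxo32 scatter around a weak upward trend (r of 0.43 over 20 rats), with Vegfb KO control replicate 3 farthest to the right. None of the 3 pairs passed the adjusted test.

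Within groups the adaptors were the most variable of the 6 genes, with SDs of log2 CPM of 0.346 for Irs2 and 0.296 for Irs1, the 74.7th and 68.7th percentiles of all tested IDs. Those of Insr, Trim63 and Fbxo32 were 0.208, 0.217 and 0.180. From lowest to highest of the 20 libraries, Irs2 spanned 2.89-fold, Irs1 2.49-fold, Insr 1.77-fold, Trim63 1.76-fold, Fbxo32 1.46-fold and Foxo1 1.37-fold. The tested IDs with the pattern most like Trim63 over the 20 libraries were ENSRNOG00000060154 (Pearson r of log2 CPM 0.90) and ENSRNOG00000014960 (0.89). Those most like Irs1 were ENSRNOG00000003694 (0.88) and ENSRNOG00000011697 (0.88). These are highest values among 14293 IDs, given as a description, and their symbols are not known here.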

How the data were processed

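RNA of ventricles from 20 rats was sequenced by the authors as directional paired-end libraries. The submitters' processing notes name kallisto, edgeR, DESeq2 and the build mRatBN7.2. Estimated counts were deposited for each Ensembl gene ID, not scaled to a common library size, and can split reads between similar transcripts. They were rounded to whole numbers. Within 0.1 of a whole number lay 61.2% of those from 0.5 to 20. edgeR 4.0.16 in R 4.3.3 was used with filterByExpr by group, TMM and a robust quasi-likelihood model that gave each of the 4 groups its own mean. p-values were adjusted by Benjamini-Hochberg over 14293 IDs, and calls needed an adjusted p under 0.05 and, except for the interaction, a log2 fold change beyond 0.27 in either direction. log2 CPM used a prior count of 2, and permutation tests were two-sided with 100000 permutations within groups. Fits were tested on simulated counts. Within groups no library was treated as a duplicate, since the lowest chi-square per gene between any pair of a group was 5.92.

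The genes and lists were chosen with earlier results of these data known. The rule named all 6 genes. For each gene, the 2 tested IDs with the highest r were then found. Those printed were chosen among the IDs of Fbxo32, Trim63 and Irs1. With a mean diabetes response above 0 they are the 2 with the highest r (both of Trim63). With one below 0 they are both of Irs1. The IDs nearest to Insr had higher r (0.92 and 0.90) and were outside this choice. Symbols came with the list of IDs. No table here pairs the other IDs with symbols, so Vegfb, further genes of the route and cell type markers were not analysed here, and genotype labels and tissue were not checked by them. Promoters are from RefSeq (GRCr8). Alternatives were DESeq2 1.42.0, other normalizations, filters, cut-offs and sets of libraries, the replicate number as a block, each library left out, and limma 3.58.1, added after seeing the data. Figures were drawn with matplotlib 3.10.9.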

Additional observations from a re-analysis of the deposited data

Results flagged for a closer look

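Within each group of 5 rats, the gap of the highest or lowest value to its nearest neighbour was set against the range of the group. Of 36 groups of values examined, 5 held a value farther out than Dixon's 95% limit of 0.71, where chance gives about 1.8. Foxo1 in WT control replicate 3 was at 16.7 CPM, below the other WT controls at 19.9 to 20.0 CPM. Irs2 in WT diabetic replicate 2 was at 38.9 CPM, above the next value of 26.8 CPM, in a library where a single gene ID took 23.3% of the counts. Insr in Vegfb KO control replicate 1 was at 44.6 CPM, below the other Vegfb KO controls at 49.9 to 52.0 CPM. Trim63 in Vegfb KO control replicate 3 was at 173 CPM, above the next value of 117 CPM. The total count of WT diabetic replicate 1 was 12965611, the lowest of its group. The causes were not tested.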

How the results depend on the processing

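Over the alternatives, 375 of 384 log2 fold changes of the 6 genes kept their direction, and the 9 that changed it were not called. With each library left out, 686 of 720 kept it and the 34 others were not called. These counts include fits that could hardly change a direction. The cut-off of adjusted p alone kept the fold changes of the main fit, and leaving out a library outside the groups compared hardly moved them. Calls by gene went as follows. With adjusted p alone, 2 genes were called for the mean response over both genotypes (Insr joined Irs2), against 23.2% of all tested IDs. With no filter on low counts, which adds tested IDs, 0 were called in Vegfb KO hearts, against 4.72% of all tested IDs, since the adjusted p of Irs2 was 0.0530 from edgeR's quasi-likelihood test (0.00535 to 0.0530 over its alternatives). Without both dominated libraries, 1 was called in WT hearts (Irs1) and 2 for the mean response (Irs1 and Irs2), against 12.6% and 15.7% of all tested IDs. limma voom with sample quality weights, added after seeing the data, called 2 in WT hearts and 2 for the mean response, against 19.7% and 18.3% of all tested IDs. When each library was left out, the counts ranged from 0 to 1 in WT, from 0 to 1 in Vegfb KO hearts and from 1 to 2 for the mean response. The shares of all tested IDs called over these fits were, in the same order, 9.99% to 15.9%, 4.46% to 8.64% and 14.2% to 17.4%. Apart from construction, the causes were not tested.

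Over all tested IDs, edgeR called 6 between the diabetic genotypes where DESeq2 called 65 and limma 28. In WT hearts edgeR called 1876 where limma called 2819. Single rats also moved the edgeR counts. Between the diabetic genotypes the count was 181 once WT diabetic replicate 3 was dropped, and at its lowest 2, as after dropping Vegfb KO diabetic replicate 1. In WT hearts it lay between 1440 (replicate 4 of the diabetic rats dropped) and 2285 (their replicate 3 dropped). With the replicate number as a block (replicate block) the counts of genes called were the same. They were 1 in Vegfb KO hearts and for the mean response, against 7.33% and 15.9% of all tested IDs. In WT hearts the count was 0, against 12.5%. It was also 0 between the genotypes, against 0.0210% in controls and 0.0280% in diabetic hearts, and for the interaction, against 0%. Irs2 in Vegfb KO hearts was 0.76 with an adjusted p of 0.0360 from edgeR's quasi-likelihood test. Same-numbered libraries of different groups had correlations from -0.26 to 0.26, over 0.1 in 10 of 30 pairs. They were not set against differently numbered libraries, so whether the numbers pair the rats was not tested.

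With 5 rats a group, the intervals of single-genotype changes were widest for Irs1 and Irs2, where a change of 0.27 could not be told from 0. Insr in WT hearts, at 0.29 with an adjusted p of 0.109 (edgeR's quasi-likelihood test), was not called either. The shallowest libraries limit the adaptors and Foxo1 most, with 97 to 147 counts at their lowest. Estimated counts were not checked against reads.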
